A study of Sus scrofa with 18 samples.

Results

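Adenine nucleotide and phosphocreatine enzymes are described here by 10 genes: the AMP deaminases AMPD1 and AMPD3, adenylate kinase AK1, the creatine kinases CKM, CKB and CKMT2, the adenylosuccinate enzymes ADSL and ADSSL1, and the AMP-activated kinase subunits PRKAA2 and PRKAG3. The 10 genes were picked on these data, after a large difference between days in AMPD3 and AK1 had been seen, and were matched by gene symbol or human homolog name in the authors' annotation. They had 13 probe sets among 23999 tested, and 9909 genes were named in all. ADSL had 2 probe sets, PRKAG3 had 3 and the other 8 genes had 1 each. All 13 were tested or described, since no filter on low values was applied. AMPD3, AK1, CKB and 2 PRKAG3 probe sets were named through the human homolog only.

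The samples came from 5 female piglets in a model of critical illness, and Affymetrix porcine arrays measured total RNA of masseter, a chewing muscle, and of biceps femoris, a thigh muscle. The piglets were anaesthetised, mechanically ventilated and immobile for 5 days, with pancuronium, which blocks the neuromuscular junction, at 0.1 mg/kg/h, the corticosteroid betamethasone in doses of 0.1 mg/kg, and a 1 h infusion of Escherichia coli endotoxin at 36 µg/kg/h. Masseter samples were taken at day 5 (treated, 5 arrays) and at day 1 (control, 5 arrays), and same-numbered arrays came from 1 animal. Biceps femoris had 4 arrays at day 5 and 4 at day 1, from 4 of these piglets per the protocol, but the labels do not say which. The day 1 biceps femoris arrays were called controls in their titles, descriptions and the series text but treated in their source and treatment labels. A breed tag named wild boar, whereas the protocol named domestic piglets. No arrays of animals kept without the drugs and endotoxin were analysed here, so the treatment and 4 further days cannot be told apart. The p-values measure the spread between these arrays. The title of the series asks how masticatory muscle is spared relative to biceps femoris.

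Muscle restores ATP through linked reactions. Creatine kinases move the phosphate of phosphocreatine onto ADP, CKM in the cytosol of muscle fibres, CKMT2 in their mitochondria and CKB mainly in brain and other tissues. Adenylate kinase turns a pair of ADP molecules into ATP and AMP. AMP deaminase removes that AMP by making IMP and ammonia, and ADSSL1 and ADSL, the muscle adenylosuccinate synthetase and the lyase after it, convert IMP back to AMP, which closes the purine nucleotide cycle. AMPD1 is the isoform known from skeletal muscle, and AMPD3 is annotated as the erythrocyte isoform. The AMP-activated protein kinase senses AMP; PRKAA2 is a catalytic subunit and PRKAG3 a regulatory subunit known from skeletal muscle.

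All values are log2 intensities as the authors deposited them, so a difference of 1 is a doubling. Levels are not compared between genes, and a probe set is placed among the others of its array only to show whether it lay near the bottom or the top of the scale. The muscles had been normalized apart, so levels are compared within a muscle only. A probe set passed when its limma p, adjusted by the Benjamini-Hochberg method over all 23999 probe sets, was under 0.05. AMPD3 and AK1 are given as values, changes and standard errors with no test. The array medians lay between 6.09 and 6.16. Of 12 listed muscle fibre genes, such as ACTA1 and TTN, 11 were measured. None of these 11 lay below the lower quartile on every array of a muscle. Their summed level was 17.14 to 17.59 in masseter at day 5 and 17.64 to 17.70 at day 1, and 17.09 to 17.18 in biceps femoris at day 5 and 17.24 to 17.28 at day 1. In bulk muscle, fewer cells of a type and less RNA per cell cannot be told apart. Biceps femoris day 5 replicate 1 stood apart in the difference between the 3′ and 5′ actin control probe sets, which was 2.05 there, 1.04 to 1.15 on the other day 5 arrays and 1.39 to 1.72 at day 1. The added control transcript BioC read 7.43 to 7.78 in biceps femoris at day 5, and 8.87 to 9.13 on day 1 replicates 1, 2 and 3 but 7.97 on day 1 replicate 4.

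AMPD3, which deaminates AMP, was far higher at day 5 than at day 1 in both muscles. In masseter, AMPD3 read 8.73, 11.46, 10.79, 11.63 and 11.57 at day 5 in replicates 1 to 5, against 5.11, 7.26, 5.56, 5.42 and 4.94 at day 1. Replicate 1 was the lowest array of day 5 and replicate 2 the highest of day 1, and the days did not overlap. At day 1, AMPD3 lay below the array median in replicates 1, 3, 4 and 5, at percentiles 31.7 to 40.9. In replicate 2 it lay above, at percentile 67.4. The AMPD3 mean was 10.84 ± 1.22 at day 5 and 5.66 ± 0.93 at day 1 (SD, n = 5 each), a change of 5.18 (SE 0.59) or 36.2-fold. Within the 5 animals, the AMPD3 change ran from 3.62 in the animal of replicate 1 to 6.63 in that of replicate 5, so that every animal was higher at day 5.

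In biceps femoris, AMPD3 read 11.17, 8.76, 9.73 and 10.77 at day 5 in replicates 1 to 4, against 7.90, 8.39, 6.27 and 6.29 at day 1. Replicate 2 of day 5 lay just above replicate 2 of day 1, the closest pair between the days, which did not overlap. At day 1, AMPD3 lay above the median of each array here, at percentiles 52.5 to 83.1. The AMPD3 mean was 10.10 ± 1.08 at day 5 and 7.21 ± 1.09 at day 1 (SD, n = 4 each), a change of 2.89 (SE 0.65) or 7.42-fold. With the arrays that BioC parts as a block, the AMPD3 change in biceps femoris was 3.82 or 14.1-fold; this value rests on replicate 4 alone for day 1. The change in masseter exceeded that in biceps femoris by 2.29 (SE 0.95). Among the 11 probe sets other than those of AMPD3 and AK1, the days did not overlap on 2 in masseter, where 11.4% of all probe sets had no overlap, and on 2 in biceps femoris, where 22.2% had none.

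**Figure D1:**
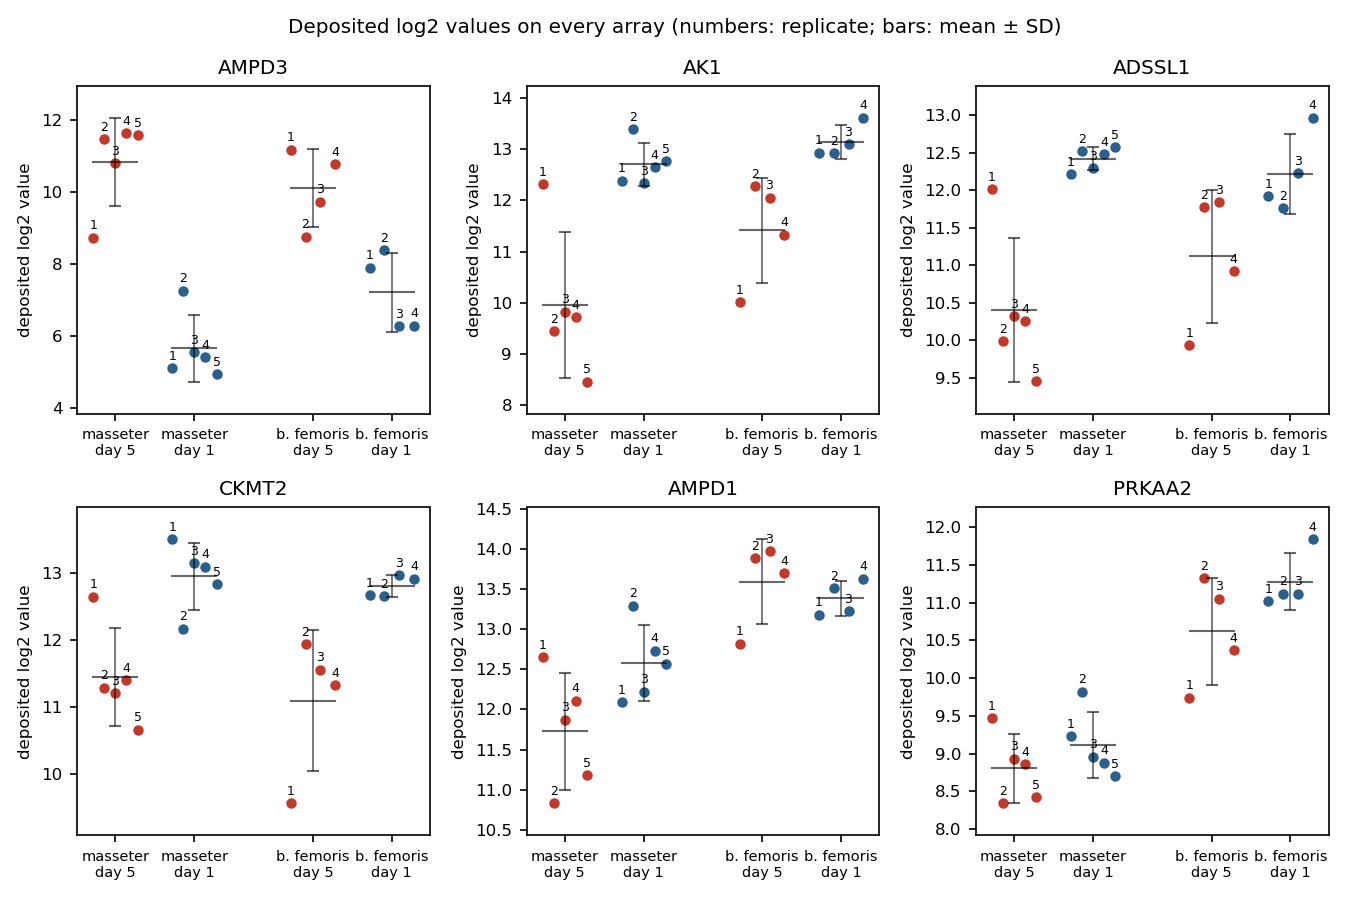
Deposited log2 values (vertical axis) of 6 genes on every array, day 5 in red left of day 1 in blue, for masseter (n = 5) and biceps femoris (n = 4). Small numbers give the replicate and bars the mean ± SD; each panel has its own scale. Masseter day 5 replicate 1 sits at 12.31 for AK1, beside the day 1 arrays, while the other day 5 arrays lie between 8.46 and 9.83.

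As the annotation names AMPD3 for red cells, red cell genes were examined beside it. Of 11 listed red cell markers, 4 were measured and none passed in either muscle by limma; at an unadjusted p under 0.05, 1 did in masseter (SLC4A1) and 2 in biceps femoris (ALAS2 and SLC4A1). HBB, a globin of red cells, changed by -0.46 (SE 0.49, adjusted p = 0.581) in masseter and by -1.28 (SE 0.77, adjusted p = 0.315) in biceps femoris. The summed level of the 4 genes was 14.81 to 15.47 at day 5 and 14.80 to 15.62 at day 1 in masseter. In biceps femoris this sum was 14.03 to 14.61 at day 5 and 14.21 to 15.04 at day 1.

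AMPD1, the muscle isoform of the same reaction, did not pass in either muscle. Its masseter values were 12.65, 10.83, 11.87, 12.11 and 11.18 at day 5, against 12.09, 13.29, 12.22, 12.73 and 12.57 at day 1. The animal of replicate 1 was higher at day 5 by 0.56 and the other 4 were lower, by up to 2.46 in that of replicate 2. The AMPD1 change in masseter was -0.85 (SE 0.34, adjusted p = 0.126). Without masseter day 5 replicate 1 it was -1.08 and passed (adjusted p = 0.0334). In biceps femoris AMPD1 read 12.82, 13.88, 13.97 and 13.70 at day 5, against 13.18, 13.51, 13.22 and 13.63 at day 1, with overlapping days and a change of 0.21 (SE 0.25, adjusted p = 0.641). The difference between the muscles, masseter minus biceps femoris, was -1.06 (SE 0.47, adjusted p = 0.367).

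AK1, the cytosolic adenylate kinase of muscle, was lower at day 5 in both muscles. In masseter, AK1 read 12.31, 9.45, 9.83, 9.72 and 8.46 at day 5, against 12.38, 13.38, 12.33, 12.64 and 12.76 at day 1. Day 5 replicate 1 lay just under the lowest day 1 array, and the other 4 were lower by more than 2. The AK1 mean was 9.95 ± 1.42 at day 5 and 12.70 ± 0.42 at day 1 (SD, n = 5 each), a change of -2.74 (SE 0.58), or 6.70-fold lower. Replicate 1 decided much of this size: without its day 5 array, the AK1 change was -3.33, or 10.1-fold lower. The change within the animal of replicate 1 was -0.07, and in the other 4 animals it lay between -4.30 and -2.50.

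In biceps femoris, AK1 read 10.01, 12.27, 12.05 and 11.33 at day 5, against 12.93, 12.92, 13.09 and 13.61 at day 1. Day 5 replicate 1 was the lowest array, and the days did not overlap. This was the array that stood apart in the actin control probe sets, and the labels do not link it to a masseter animal. The AK1 mean was 11.42 ± 1.02 at day 5 and 13.14 ± 0.33 at day 1 (SD, n = 4 each), a change of -1.72 (SE 0.46), or 3.29-fold lower. Without day 5 replicate 1 the AK1 change in biceps femoris was -1.25. The difference between the muscles was -1.03 (SE 0.81).

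ADSSL1, which makes adenylosuccinate from IMP, fell in masseter with AK1. It read 12.02, 9.99, 10.32, 10.26 and 9.46 in masseter at day 5, against 12.22, 12.52, 12.30, 12.48 and 12.58 at day 1. The same array, day 5 replicate 1, was close to day 1 while the other 4 were lower by more than 1.5, and the days did not overlap. ADSSL1 fell by 2.01 (SE 0.38, limma adjusted p = 0.00742), or 4.02-fold, and was lower at day 5 in 5 of 5 animals. In biceps femoris it read 9.94, 11.78, 11.84 and 10.92 at day 5, against 11.92, 11.76, 12.23 and 12.97 at day 1, so that the days overlapped. That change was -1.10 (SE 0.44) and did not pass (adjusted p = 0.137). With the BioC arrays as a block it was -1.85, or 3.60-fold lower, and still did not pass (adjusted p = 0.178). The ADSSL1 changes of the muscles differed by -0.91 (SE 0.62, adjusted p = 0.595).

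ADSL, the lyase of the same cycle, did not pass on either probe set. On the first of them the change was -0.45 (SE 0.20, adjusted p = 0.163) in masseter and 0.07 (SE 0.27, adjusted p = 0.906) in biceps femoris. On the second it was -0.23 (SE 0.19, adjusted p = 0.468) in masseter and 0.27 (SE 0.31, adjusted p = 0.621) in biceps femoris. In biceps femoris the day 5 arrays spread more widely than the day 1 arrays on both ADSL probe sets. On the second they ran from 9.41 in replicate 1 to 11.07 in replicate 2, against 9.89 to 10.02 at day 1.

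Of the 3 creatine kinases, CKMT2, the form of muscle mitochondria, was the one that passed, and it fell in both muscles. In masseter it read 12.65, 11.29, 11.21, 11.40 and 10.66 at day 5, against 13.51, 12.17, 13.15, 13.10 and 12.84 at day 1. Day 5 replicate 1 lay above day 1 replicate 2, so the days overlapped through this pair of arrays, but each of the 5 animals was lower at day 5. CKMT2 fell by 1.51 in masseter (SE 0.35, adjusted p = 0.0173), or 2.85-fold.

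In biceps femoris CKMT2 read 9.56, 11.94, 11.56 and 11.33 at day 5, against 12.67, 12.66, 12.97 and 12.92 at day 1. Replicate 1 was the lowest day 5 array by far and the days did not overlap. CKMT2 fell by 1.71 (SE 0.45, adjusted p = 0.034), or 3.27-fold, and the authors' deposited table gives an adjusted p of 0.035 for it. Without day 5 replicate 1 the fall was 1.20 and passed with an adjusted p of 0.00227. The call was lost without any 1 of the 4 day 1 arrays or without day 5 replicate 3 or 4 (adjusted p from 0.0515 to 0.089), and with the BioC arrays as a block (change -1.82, adjusted p = 0.253). The CKMT2 changes of the muscles differed by 0.20 (SE 0.60, adjusted p = 0.931).

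CKM, the cytosolic creatine kinase of muscle fibres, did not pass. It read 14.66 to 14.80 in masseter at day 5 and 14.77 to 14.87 at day 1, a change of -0.07 (SE 0.07, adjusted p = 0.538). In biceps femoris it read 14.09 to 14.18 at day 5 and 14.13 to 14.18 at day 1, a change of -0.03 (SE 0.07, adjusted p = 0.815). On each array only 5 to 15 probe sets lay above CKM, which was 0.26 to 0.50 below the highest value, so a change near the top of the scale may not show. CKB, the form known from brain, changed by -0.07 (SE 0.19, adjusted p = 0.853) in masseter and by 0.27 (SE 0.17, adjusted p = 0.34) in biceps femoris.

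**Figure D2:**
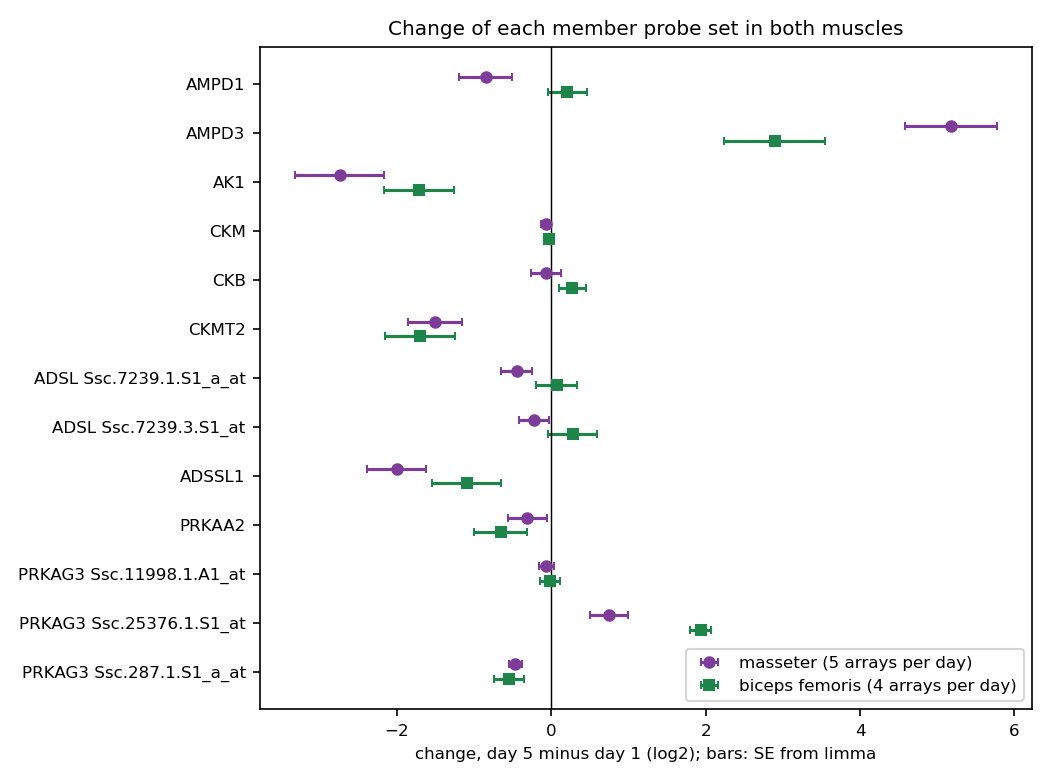
Change from day 1 to day 5 (horizontal axis, log2, day 5 minus day 1) of the 13 probe sets in masseter (circles) and biceps femoris (squares), with the SE from limma as bars. AMPD3 lies farthest to the right at 5.18 in masseter and 2.89 in biceps femoris, AK1 farthest to the left in both, and CKM at zero.

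The kinase subunits gave mixed results. PRKAA2, the catalytic alpha-2 subunit, read 8.34 to 9.47 in masseter at day 5 and 8.70 to 9.82 at day 1, a change of -0.31 (SE 0.25, adjusted p = 0.448). In biceps femoris it read 9.74, 11.32, 11.05 and 10.37 at day 5, against 11.02, 11.12, 11.12 and 11.84 at day 1, a change of -0.66 (SE 0.35, adjusted p = 0.252). Replicates 1 and 4 of day 5 lay below all day 1 arrays and replicates 2 and 3 among them.

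The 3 PRKAG3 probe sets disagreed. The only one with a pig PRKAG3 symbol read 5.78, 5.52, 5.75, 5.88 and 5.89 in masseter at day 5, against 6.15, 6.27, 6.32, 6.24 and 6.19 at day 1. The days did not overlap, and the probe set fell by 0.47 (SE 0.09, adjusted p = 0.0069), or 1.38-fold. In biceps femoris it read 6.34, 6.72, 6.66 and 6.26 at day 5, against 6.73, 6.71, 7.36 and 7.35 at day 1, a change of -0.55 (SE 0.19) that did not pass (adjusted p = 0.0935). A second, named through its homolog as the gamma-3 subunit, changed by -0.07 (SE 0.09, adjusted p = 0.688) in masseter and by -0.02 (SE 0.13, adjusted p = 0.948) in biceps femoris.

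The third PRKAG3 probe set is of doubtful identity. Its human homolog row gives chromosome 14 and an unnamed 50 kDa protein, whereas the rows of the other PRKAG3 probe sets give human chromosome 2 and the gamma-3 subunit. It read 8.14, 8.41, 8.52 and 8.36 in biceps femoris at day 5, against 6.35, 6.70, 6.15 and 6.50 at day 1. The days lay far apart with little spread, and it rose by 1.93 (SE 0.14, adjusted p = 0.00017), or 3.82-fold. In masseter it read 8.41, 7.29, 7.29, 8.37 and 7.79 at day 5, against 7.23, 7.38, 6.58, 7.12 and 7.10 at day 1, a change of 0.75 (SE 0.25, adjusted p = 0.0735). Without masseter day 5 replicate 2 or replicate 3 it passed (adjusted p of 0.0489 and 0.0447). The changes of the muscles differed by -1.18 (SE 0.32), which did not pass (adjusted p = 0.14).

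Of the 11 probe sets of the 8 genes other than AMPD3 and AK1, 3 passed in masseter, all lower (CKMT2, ADSSL1 and the PRKAG3 probe set with a pig symbol), and none higher. Among all probe sets in masseter 13.8% passed, 7.31% higher and 6.51% lower. In biceps femoris 2 of the 11 passed, CKMT2 lower and the doubtful PRKAG3 probe set higher, beside 17.2% of all probe sets, 9.89% higher and 7.27% lower. At an unadjusted limma p under 0.05 there were 6 of 11 in masseter and 4 of 11 in biceps femoris. The share of all probe sets under that unadjusted threshold was not counted, here or for the gene lists. It is at least the 13.8% and 17.2% that passed after adjustment. The median change of the 11 was -0.31 in masseter, where that of all probe sets was -0.03, and -0.02 in biceps femoris, where that of all was also -0.02. The biceps femoris count of 2 after adjustment is near the share over all probe sets. Nothing particular to the members is read from any of these counts, adjusted or unadjusted. For the difference between the muscles, limma passed 0 of the 11, beside 0.2% of all probe sets. At an unadjusted p under 0.05 there were 2, AMPD1 and the doubtful PRKAG3 probe set, again with no share over all probe sets counted.

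In masseter, where day 1 and day 5 came from the same piglets, AMPD3, AK1, ADSSL1 and CKMT2 had their smallest and largest changes in the same animals. The animal of replicate 1 had the smallest AMPD3 change, 3.62, and the changes nearest to zero of AK1 at -0.07, ADSSL1 at -0.20 and CKMT2 at -0.86. The animal of replicate 5 had the largest AMPD3 change, 6.63, and the largest falls of AK1 at -4.30, ADSSL1 at -3.12 and CKMT2 at -2.18. Between these ends the order was not the same for each gene: the animal of replicate 2 had a small AMPD3 change of 4.20 beside an AK1 change of -3.93. Other members went otherwise. Both ADSL probe sets fell most in the animal of replicate 1 (-1.09 and -0.88), and AMPD1 and PRKAA2 in that of replicate 2 (-2.46 and -1.48). CKB was 0.52 higher at day 5 in the animal of replicate 5. The genes and animals were singled out by the values themselves, so no test was made.

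**Figure D3:**
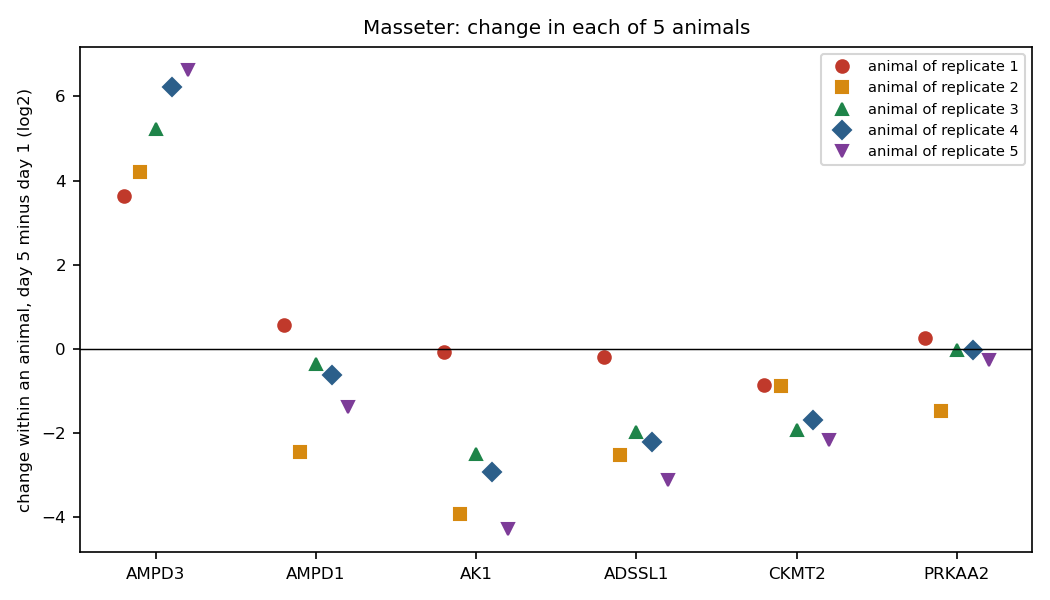
Change within each of the 5 animals in masseter (vertical axis, log2, day 5 minus day 1) for 6 genes, 1 symbol per animal. The animal of replicate 1 (red circles) lies near zero for AK1 and ADSSL1, at -0.07 and -0.20, and all 5 animals lie above 3 for AMPD3.

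Some sums of fibre markers followed these differences between arrays. In masseter at day 5, the summed level of 8 measured of 9 listed fast fibre markers was 16.43, 16.13, 16.39, 16.38 and 15.80 in replicates 1 to 5, against 16.62 to 16.95 at day 1. Its order at day 5 was that of AK1, highest in replicate 1 and lowest in replicate 5. The sum of the 11 general muscle fibre genes was likewise highest in replicate 1, at 17.59, and lowest in replicate 5, at 17.14. The pattern is thus not particular to fast fibre genes. Of the 8 fast fibre genes 3 passed in masseter, all lower (MYH1, TNNT3 and ATP2A1), and MYH2 lay below the lower quartile on every array of both muscles. In biceps femoris 0 of the 8 passed. Their sum there was 16.11, 16.48, 16.47 and 16.32 at day 5 in replicates 1 to 4, against 16.35 to 16.54 at day 1, with overlapping days.

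In biceps femoris, all 8 listed slow fibre markers were measured, and 5 passed, all lower (MYH7, MYL3, TNNT1, TNNI1 and ATP2A2). Their summed level was 15.89, 12.98, 12.50 and 15.20 at day 5 in replicates 1 to 4, against 16.27 to 16.79 at day 1. Replicates 1 and 4, with the more slow fibre RNA of the day 5 arrays, had the higher AMPD3 values and the lower values of AK1, ADSSL1, CKMT2 and PRKAA2. In masseter the slow fibre sum was 16.25, 16.67, 16.77, 16.45 and 16.57 at day 5 in replicates 1 to 5, not in the order of AK1. At day 1 it was 16.59 to 17.19 there, and 3 of the 8 genes passed in masseter, all lower. Markers of other cells moved with the days as well. All 8 listed fibroblast markers were measured, and in biceps femoris 6 passed, all lower, with a median change of -1.69. Their summed level there was 12.68 to 14.17 at day 5 and 14.82 to 15.48 at day 1, with no overlap. In masseter 1 of the 8 passed, lower, the median change was -1.01, and the sum was 12.77 to 14.82 at day 5 and 14.26 to 15.31 at day 1. Of 13 measured of 15 listed macrophage and leukocyte markers, 1 passed in masseter, higher, with a median change of 0.46, and their sum there was 10.25 to 11.41 at day 5 and 10.07 to 11.15 at day 1. Day 5 replicate 1, the array nearest to day 1 for AK1 and ADSSL1, had the highest of these sums. At an unadjusted limma p under 0.05 there were 8 of the 13 markers in masseter and 1 in biceps femoris. In biceps femoris 0 passed after adjustment, and the median change was -0.01.

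The endothelial sum of 7 measured of 8 listed genes was 11.21 to 11.76 in biceps femoris at day 5 and 11.95 to 12.30 at day 1, with no overlap, and 2 of the 7 passed, both lower. In masseter it was 11.84 to 12.34 at day 5 and 11.26 to 12.89 at day 1. Of the listed smooth muscle, adipocyte and nerve genes, at most 2 of each passed in a muscle. The part of fibre type and of other cells in the changes of the members was not tested.

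Of the neighbouring pathways, 62 genes were listed and 47 were measured, each by its probe set of highest mean. In masseter 6 of the 47 passed higher and 7 lower, and in biceps femoris 5 passed higher and 4 lower. Among all 9909 genes, 9.61% passed higher and 8.33% lower in masseter, and 13.4% higher and 9.63% lower in biceps femoris. The median change of the 47 was -0.06 in masseter and 0.07 in biceps femoris, where that of all genes was -0.02 in both muscles.

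Among purine salvage and synthesis genes, of which 13 of 15 were measured, IMPDH2 and GMPS, enzymes of the branch from IMP to GMP, rose in both muscles on the probe sets of highest mean. IMPDH2, which oxidises IMP to XMP, averaged 11.47 ± 0.50 in masseter at day 5 and 10.08 ± 0.25 at day 1 (SD, n = 5 each), a rise of 1.39 (SE 0.22, adjusted p = 0.00348). In biceps femoris IMPDH2 averaged 10.98 ± 0.17 at day 5 and 9.57 ± 0.20 at day 1 (SD, n = 4 each), a rise of 1.41 (SE 0.13, adjusted p = 0.00037). GMPS, which makes GMP from XMP, rose by 0.97 (SE 0.14, adjusted p = 0.00198) in masseter and by 1.22 (SE 0.08, adjusted p = 0.000169) in biceps femoris. For both genes the days did not overlap in either muscle.

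GMPR, which turns GMP back into IMP, fell by 1.04 in masseter (SE 0.22, adjusted p = 0.0129) and did not pass in biceps femoris (-0.41, SE 0.29, adjusted p = 0.402). The gene ATIC, of IMP synthesis, fell in masseter (-0.65, adjusted p = 0.0256), and GMPR2 rose in biceps femoris (0.36, adjusted p = 0.0369). The ATIC call was lost without masseter day 1 replicate 1 or 5 or day 5 replicate 2 (adjusted p from 0.0558 to 0.0635). That of GMPR2 was lost without any 1 of the day 1 arrays or day 5 replicate 3 or 4 (adjusted p from 0.0508 to 0.0967), and with the BioC arrays as a block (0.51, adjusted p = 0.105). GMPR2 had 2 further probe sets, which were lower at day 5 in both muscles: one fell by 0.48 in masseter (adjusted p = 0.0426) with a change of -0.41 in biceps femoris (adjusted p = 0.281), and the other changed by -0.28 in masseter (adjusted p = 0.364) and by -0.38 in biceps femoris (adjusted p = 0.293). The GMPR2 probe sets thus disagreed in direction. The 4 further ATIC probe sets did not pass in masseter (-0.42 to -0.06), and a second GMPR probe set fell there (-1.19, adjusted p = 0.0367). A second IMPDH2 probe set (0.09 in masseter and 0.28 in biceps femoris) and a second GMPS probe set (-0.32 in masseter and 0.09 in biceps femoris) did not pass.

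Of 10 listed relatives of the purine nucleotide cycle, 6 were measured. None passed in masseter by limma, where 1 did at an unadjusted p under 0.05, and AK3 fell in biceps femoris. AK3, an adenylate kinase of the mitochondrial matrix, fell there by 1.21 (SE 0.19, adjusted p = 0.00329), against a change of -0.78 in masseter (SE 0.28, adjusted p = 0.0928). With the animal as a replicate block AK3 passed in masseter too (adjusted p = 0.0436), as it did without day 5 replicate 1 (adjusted p = 0.0187), and with the BioC arrays as a block it did not pass in biceps femoris (adjusted p = 0.0732). AMPD2, the third AMP deaminase gene, changed by -0.07 (adjusted p = 0.817) in masseter and by 0.06 (adjusted p = 0.645) in biceps femoris.

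Of 13 listed nucleotide breakdown genes 9 were measured. NT5C2, a cytosolic nucleotidase acting mainly on IMP and GMP, rose by 1.05 in masseter (SE 0.30, adjusted p = 0.0401), a call lost without any 1 of 9 of the 10 arrays (adjusted p up to 0.0894). None passed in biceps femoris by limma, where 1, NT5C3, did at an unadjusted p under 0.05; NT5C2 passed there without day 5 replicate 2 (0.54, adjusted p = 0.0404).

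Of 3 measured of 6 listed creatine supply genes and creatine kinase relatives, GAMT fell in masseter. GAMT, which makes creatine by methylating guanidinoacetate, averaged 7.65 ± 0.92 in masseter at day 5 and 9.99 ± 0.28 at day 1 (SD, n = 5 each). It fell by 2.34 on the log2 scale (SE 0.38, adjusted p = 0.00347) with no overlap of the days. In biceps femoris its change was -0.88 (SE 0.43, adjusted p = 0.213), and the muscles differed by -1.46 (SE 0.61, adjusted p = 0.331). The creatine transporter SLC6A8 changed by 0.29 (adjusted p = 0.317) in masseter and by 0.22 (adjusted p = 0.343) in biceps femoris. None of the 3 passed in biceps femoris by limma, and 1, CKMT1A, did at an unadjusted p under 0.05.

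Among 10 measured of 12 listed genes of the AMP-activated kinase and its upstream kinases, PRKAB2 fell in both muscles. PRKAB2, the beta-2 subunit that joins catalytic and gamma subunits in muscle, averaged 10.36 ± 0.29 in masseter at day 5 and 11.46 ± 0.10 at day 1 (SD, n = 5 each), a fall of 1.10 (SE 0.13, adjusted p = 0.000901). In biceps femoris it averaged 9.20 ± 0.20 at day 5 and 10.53 ± 0.24 at day 1 (SD, n = 4 each), a fall of 1.32 (SE 0.15, adjusted p = 0.000774). Both PRKAB2 probe sets fell in both muscles, and the days did not overlap on the one given.

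Other gamma subunits moved in opposite directions in masseter. PRKAG1, the gamma-1 subunit, fell by 0.64 there (SE 0.12, adjusted p = 0.0069), and its biceps femoris change of -0.42 did not pass (adjusted p = 0.0971), while it did without day 1 replicate 4 (-0.54, adjusted p = 0.0395). A second PRKAG1 probe set fell in masseter too (-0.60, adjusted p = 0.0145). PRKAG2, the gamma-2 subunit, rose by 1.36 in masseter (SE 0.28, adjusted p = 0.0116), with a second PRKAG2 probe set at -0.01 (adjusted p = 0.979). CAB39, a scaffold of the upstream kinase STK11, rose by 0.65 in masseter (SE 0.13, adjusted p = 0.00871), and STK11 itself did not pass in either muscle. Of the further CAB39 probe sets, one rose in masseter (1.04, adjusted p = 0.0319) and in biceps femoris (0.78, adjusted p = 0.0176), and the other did not pass in masseter (-0.06) and fell in biceps femoris (-0.26, adjusted p = 0.0363). PRKAA1, the other catalytic subunit, did not pass on its probe set of highest mean, while another of its probe sets rose in masseter (0.75, adjusted p = 0.00601) and in biceps femoris (0.57, adjusted p = 0.0281).

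The carriers that exchange ATP for ADP across the mitochondrial membranes changed in both directions, with all 6 listed genes measured. SLC25A4, the exchanger known from heart and skeletal muscle, fell by 0.51 in masseter (SE 0.13, adjusted p = 0.0275) and by 0.57 in biceps femoris (SE 0.09, adjusted p = 0.0046). VDAC1, a porin of the outer membrane, fell by 0.58 in masseter (SE 0.09, adjusted p = 0.00231) and by 0.50 in biceps femoris (SE 0.10, adjusted p = 0.0119). SLC25A6, another exchanger, rose by 0.44 in masseter (SE 0.10, adjusted p = 0.017) and by 0.62 in biceps femoris (SE 0.14, adjusted p = 0.0157).

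VDAC3 rose by 0.51 in biceps femoris (SE 0.13, adjusted p = 0.0245) and did not pass in masseter (-0.21, adjusted p = 0.429). With the animal as a replicate block, the masseter calls of SLC25A4 (adjusted p = 0.0619) and SLC25A6 (adjusted p = 0.0502) were lost. The masseter call of SLC25A4 was also lost without day 1 replicate 1, 3, 4 or 5 or day 5 replicate 2 or 5 (adjusted p from 0.0528 to 0.0681), and that of VDAC3 in biceps femoris without day 5 replicate 3 or 4 (adjusted p of 0.0572 and 0.0519). With the BioC arrays as a block, the biceps femoris calls of SLC25A4 (adjusted p = 0.0637) and VDAC1 (adjusted p = 0.189) were lost. ATIC, GMPR2, PRKAG2, PRKAA1 and VDAC3 were named after their values were seen.

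**Figure D4:**
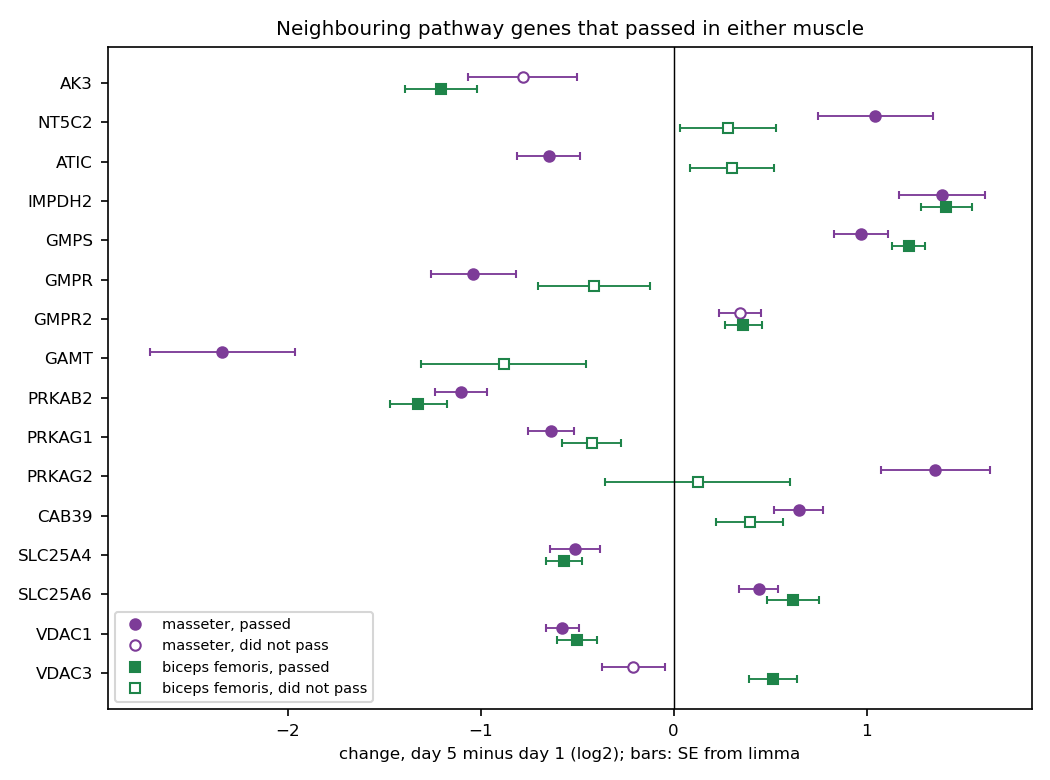
Change from day 1 to day 5 (horizontal axis, log2, day 5 minus day 1) of the 16 neighbouring pathway genes that passed in at least 1 muscle, masseter as circles above biceps femoris as squares, with SE from limma. Filled symbols passed; IMPDH2 and GMPS lie to the right in both muscles, PRKAB2, SLC25A4 and VDAC1 to the left in both, and GAMT lies farthest left in masseter at -2.34.

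The genes whose pattern was most like those of AMPD3 and AK1 were ranked by Pearson's r over the 18 arrays, each muscle centred on its own mean, among 9908 other genes. The arrays share the difference between days, which any gene that changed in both muscles will follow, so the values describe likeness only. TMBIM1 (0.97), JAK1 (0.96), AGO4 (0.95), WNT9B (0.94) and NBL1 (0.94) had the highest r with AMPD3. GPC1 (-0.96), LDHD (-0.96), RAB3A (-0.95), AGTPBP1 (-0.95) and GPT (-0.95) had the lowest. For AK1 the highest were ADSSL1 (0.98), OR13A1 (0.98), GAMT (0.97), LDHA (0.97) and ANK1 (0.96), and the lowest were HNRPC (-0.98), PPP2R1A (-0.97), ACTR1A (-0.96), ARF1 (-0.96) and ACSL4 (-0.95). ADSSL1, a gene of the same set, and GAMT, of creatine synthesis, were 2 of the 5 genes most like AK1. The set was picked with the AK1 change known, so nothing about the set is read from this. AMPD3 and AK1 had an r of -0.89 with each other.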

How the data were processed

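Per the labels, biotinylated cRNA of masseter and biceps femoris was hybridised to Affymetrix porcine arrays. The authors deposited log2 values, made with RMA per the submitters' processing notes, and these were used as they stand. A biceps femoris table deposited by the authors adds each probe set's log2 fold change with its adjusted p-value and, per the file headers, a B-statistic, a score not used here. Array build and probe sequences are not given in the sources used here. Array number limits the precision.

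Sorted values differed by at most 0.223 between masseter arrays, at most 0.230 between biceps femoris arrays and at least 0.517 between muscles, so each muscle was fitted alone. limma 3.58.1 (lmFit, eBayes, two-sided) in R 4.3.3 tested 23999 probe sets, 124 controls left out, without covariates; the difference between muscles used all 18 arrays in 4 groups, taken as independent although they share animals. The fit was tested on simulated data. Genes took symbols from the pig column, then the human homolog; 19008 probe sets had 1 name, 91 several and 4900 none. Errors are SD of values and SE of changes.

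The members, gene lists and tests were chosen with earlier results of these data known. Named by rule were all members, up to 3 called genes of smallest p per pathway list, and the 5 most and 5 least alike AMPD3 and AK1. Outside this rule, AMPD2, SLC6A8, STK11, NT5C3 and CKMT1A, which did not pass, and some cell type markers were named too. So were the genes said above to be named after their values were seen. Same-numbered masseter arrays came from 1 animal, per the descriptions. Across probe sets, their deviations from the group means had correlations of -0.03 to 0.12. Day 5 and day 1 masseter arrays of different animals had correlations of -0.15 to 0.14, so the pairing did not show in these values. Biceps femoris labels name no animals. Alternatives were the replicate block, array weights, an intensity trend, a filter at the median, requantiling, the BioC sets as a block, the mean of a gene's probe sets, the authors' table and leaving out each array.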

Additional observations from a re-analysis of the deposited data

Results flagged for a closer look

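In 52 groups of member values, an array far from the others of its group was found 2 times, and chance alone gives about 1 in 20 groups. AMPD3 in masseter at day 1 was highest in replicate 2, at 7.26, while the other 4 arrays lay between 4.94 and 5.56; without this array the AMPD3 change in masseter was 5.58. PRKAA2 in biceps femoris at day 1 was highest in replicate 4, at 11.84, against 11.02 to 11.12 on the other 3 arrays; without it the PRKAA2 change was -0.47.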

How the results depend on the processing

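No called change of a member turned its sign under any alternative run. Of 675 alternative values of the members, 663 stood on the same side of the threshold (for AMPD3 and AK1, moved by less than the spread between arrays), 5 gained a call and 7, all of CKMT2 in biceps femoris, lost it. Of 480 values of the 16 pathway genes, 38 lost and 8 gained a call. The 3 member calls in masseter were made under each alternative that tested them; the filter at the median leaves out the PRKAG3 probe set and so gives 2. In biceps femoris 2 member probe sets passed, against 1 with the BioC arrays as a block and 1 to 2 when single arrays were left out. For the difference between the muscles 0 passed, against 1 with array weights (the doubtful PRKAG3 probe set, -1.30, adjusted p = 0.026). Of the pathway genes in biceps femoris 9 passed, against 14 with array weights; the cause was not tested. With the replicate block, 3 member probe sets passed in masseter and 2 in biceps femoris, and 13 and 7 pathway genes; it changed no member call. In biceps femoris the block lost the calls of GMPR2 (adjusted p = 0.114), VDAC1 (adjusted p = 0.0521) and VDAC3 (adjusted p = 0.052) and gained that of PRKAG1 (-0.42, adjusted p = 0.0495). In biceps femoris the deviations of same-numbered arrays had correlations from -0.21 to 0.11. In masseter, where such arrays share an animal, the correlations were also low (-0.03 to 0.12). They therefore cannot tell whether the number marks an animal in biceps femoris. Over all probe sets, 3318 passed in masseter, against 2047 and 2138 without day 1 replicate 5 or 4; 4117 passed in biceps femoris, against 1306 with the BioC arrays as a block; and 48 passed for the difference, against 9 to 527 over the alternatives. The block of BioC arrays rests on 1 day 1 array.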
